A study of Homo sapiens with 4 samples.

Results

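Transforming growth factor beta (TGF-beta) signalling was examined through 10 genes, TGFB1, TGFB2, LTBP1, TGFBI, TGFBR1, TGFBR2, TGFBR3, SMAD3, SMAD7 and SKIL, in PLC8024 cells sorted for the surface protein CD133. The genes were taken as a list, with earlier results of these data known, and each probe set that the platform annotation gives to one of them and to no other gene was included. This gave 27 of the 54675 probe sets on the array and 10 of 19775 named genes. PLC8024 is a human hepatocellular carcinoma line, and flow cytometry divided it into a CD133+ and a CD133- population that carry no other treatment, so both groups are fractions of 1 line. Each population was deposited as RMA values, which are log2 summaries per probe set, and as MAS5 values, which are linear intensities, with 1 column of each. The 2 processings are not replicates of each other, no difference has an error between sorts or cultures, and no test was possible.

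TGF-beta is secreted in a latent form, in which the mature dimer stays bound to its own propeptide, and the propeptide is bonded to a latent TGF-beta binding protein that anchors the complex in the matrix. After release, the ligand binds the type II receptor, which activates the type I receptor, and a membrane proteoglycan, betaglycan, presents ligand to both. The type I receptor phosphorylates SMAD2 and SMAD3, which enter the nucleus with SMAD4. SMAD7 and SKIL are feedback inhibitors whose transcription the pathway induces. In liver tumours TGF-beta is known both as a brake on hepatocyte growth and as a driver of migration and matrix production.

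Each gene was represented by whichever of its probe sets had the highest mean over both RMA columns. The floor for expression was the median RMA value of each column over all probe sets, 5.16 for CD133+ and 5.14 for CD133-, and a probe set cleared it if the larger of its 2 RMA values did. To be counted as higher or lower, a probe set had to clear the floor and show a difference of 2-fold or more with the same sign in both processings. Of the 10 genes, 9 were above the floor and TGFB2 was not, and 18 of the 27 probe sets were above it. TGFB1, LTBP1 and TGFBI were counted as higher in CD133+, and none was counted as lower. In bulk RNA of a sorted population, more cells that express a gene and more RNA per cell cannot be told apart. Of all 13116 genes that cleared the floor, 2.25% were counted in the CD133+ direction and 1.09% in the CD133- direction. The 3 counted genes are 30.0% of all 10, though that background is over genes that cleared the floor and 9 of the 10 did. The share is above the background, but the list was composed with these results known. The median RMA difference of the 9 genes above the floor was -0.0007, and over all genes above the floor it was 0.00. That the counted genes stand apart from the other members follows from the rule that counted them.

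PROM1, which encodes CD133, had RMA values of 10.35 (CD133+) and 6.04 (CD133-). All 10 hepatocyte and liver carcinoma markers examined were above the floor, and 4 of them, ALB, AFP, APOA1 and GPC3, were counted as lower in CD133+. Their other probe sets above the floor had RMA differences of -3.29 and -2.69 for ALB, -1.87 for APOA1 and -0.78, short of 2-fold, for GPC3. Among the markers of other cells, 4 of 8 fibroblast and stellate cell markers, 4 of 7 leukocyte markers, 1 of 7 endothelial markers and 2 of 3 erythroid markers were above the floor. One of these was counted as higher, LYZ, which encodes lysozyme, at RMA values of 11.14 and 9.42, and one as lower, PECAM1, at 6.11 and 7.87. The other LYZ probe set had an RMA difference of 2.43, while the other 3 PECAM1 probe sets above the floor ran from -1.96 to 0.17. The other leukocyte markers above the floor were CD3E at 5.85 (CD133+) and 5.78 (CD133-), CSF1R at 5.67 and 5.76 and ITGAM at 5.53 and 5.22. The fibroblast markers above it were COL1A1 at 8.27 and 8.08, THY1 at 5.74 and 5.57, ACTA2 at 5.33 and, below the floor, 5.07, and DCN at 5.27 and 5.17. These values are of the brightest probe set. Of the other probe sets, 1 of 4 for COL1A1, 2 of 2 for THY1, 0 of 2 for ACTA2 and 0 of 6 for DCN were above the floor. Below the floor in both populations were PTPRC, CD14 and NKG7 of the leukocyte list, COL1A2, COL3A1, PDGFRB and LUM of the fibroblast list, LUM at 4.54 and 2.01, and 6 of the 7 endothelial markers. CD3E and the markers below the floor were named after their values were seen. The summed MAS5 intensity of the leukocyte list was 10555 in CD133+ and 4298 in CD133-, of which LYZ alone gave 10257 and 4008. That of the fibroblast list was 1087 and 609.9, of which COL1A1 gave 594.9 and 430.1. THY1 gave 134.7 and 54.2, and LUM, below the floor, 131.7 and 14.7. ACTA2, at 38.2 and 50.3, and COL1A2, at 9.02 and 10.9, lay the other way. The part of these markers in the results below was not tested.

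The 3 members counted as higher are shown by the 250 bases before their RefSeq start (GRCh38.p14), printed in the direction of the gene, because a shared regulatory feature would be looked for there. LTBP1 has 3 annotated start sites in the table, and the first of them is shown. Capitals mark the SMAD-binding box CAGAC or its reverse complement GTCTG.
TGFB1 chr19:41353923-41354172, minus strand: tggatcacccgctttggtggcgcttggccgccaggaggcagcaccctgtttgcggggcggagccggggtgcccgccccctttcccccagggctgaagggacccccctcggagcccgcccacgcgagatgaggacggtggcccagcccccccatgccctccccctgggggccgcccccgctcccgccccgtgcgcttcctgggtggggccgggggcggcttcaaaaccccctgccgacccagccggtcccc
LTBP1 chr2:32946703-32946952, plus strand: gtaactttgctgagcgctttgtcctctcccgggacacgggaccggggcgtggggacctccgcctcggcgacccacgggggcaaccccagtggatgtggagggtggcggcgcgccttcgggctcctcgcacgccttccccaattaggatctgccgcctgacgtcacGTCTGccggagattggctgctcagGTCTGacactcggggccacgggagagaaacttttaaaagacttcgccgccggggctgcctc
TGFBI chr5:136028738-136028987, plus strand: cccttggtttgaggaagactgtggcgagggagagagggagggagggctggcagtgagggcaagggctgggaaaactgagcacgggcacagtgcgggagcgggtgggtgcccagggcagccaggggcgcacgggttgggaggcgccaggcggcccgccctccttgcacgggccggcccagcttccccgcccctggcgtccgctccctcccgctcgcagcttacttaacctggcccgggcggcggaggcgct

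The 3 windows did not share the box. It was absent from the TGFB1 and TGFBI windows and present at 85 and 61 bases before the first LTBP1 start, and each of the other LTBP1 windows held it once, at 89 and 120 bases before the start. Across the 10 members it lay in 13 of 26 windows, and across all 35116 windows of the table in 38.0%. The 26 windows partly overlap, 8 of them belong to TGFBR1, and 6 of the 10 members had the box in any window. The palindrome GTCTAGAC, which contains no full copy of the box, was in none of the 26 windows and in 0.182% of all windows. The base composition of the TGFB1 and TGFBI windows was 76.8% and 72.8% G or C, both above the upper quartile of all windows at 68.0%, while the LTBP1 window had 66.4%. Among members not counted, windows above the upper quartile included those of SKIL at 78.4%, TGFBR3 at 73.6% and the first SMAD3 start at 80.8%. The TGFBR1 windows ran from 40.8% to 82.0%. TGFB2 had 50.4%, the other SMAD3 windows had at most 53.6%, and the TGFBR2 and SMAD7 windows at most 58.4%. The box and the palindrome are matches of letters in 1 window per start site and do not show occupancy.

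TGFB1 encodes the founding ligand of the family and was measured by 2 probe sets that gave different sizes. Probe set 203085_s_at had RMA values of 7.01 (CD133+) and 5.36 (CD133-), and MAS5 intensities of 409.0 and 137.9. On the log2 scale the RMA difference was 1.65 and the MAS5 difference 1.57, or 3.14-fold and 2.97-fold. Both RMA values were above the floor, the CD133- one by little. Probe set 203084_at had RMA values of 5.77 and 5.49 and MAS5 intensities of 72.1 and 59.5, a difference of 0.28 in either processing. The CD133+ population was thus the higher one in both probe sets and both processings, but the second probe set came nowhere near 2-fold. The gap of 1.37 between the 2 RMA differences was larger than that of 99.5% of the 6170 genes with 2 probe sets above the floor, whose gaps had an SD of 0.35. With the first probe set, TGFB1 ranked 131 from the top among the 13116 genes above the floor. With the median of its 2 probe sets, 0.97, TGFB1 was not counted, and which of them follows the transcript level was not tested.

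TGFB2 encodes the second ligand, and all 5 of its probe sets were below the floor in both populations. The RMA values ran from 2.60 to 4.28 in CD133+ and from 2.35 to 4.07 in CD133-, and the RMA differences from -0.20 to 0.36, 3 of them above 0. In MAS5 all 5 ratios favoured CD133+, from 0.16 to 2.0 on the log2 scale. The largest came from intensities of 30.3 and 7.59 at probe set 209909_s_at and of 45.0 and 12.3 at probe set 220406_at. All these intensities were under the column medians of 86.0 in CD133+ and 86.1 in CD133-. Among all probe sets below the floor 41.6% differed by at least 2-fold one way or the other in MAS5, against 0.591% in RMA. A MAS5 ratio past 2-fold was thus common at such signals, and no fold is given for TGFB2.

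LTBP1, which encodes the binding protein that tethers the latent complex to the matrix, was higher in CD133+ in both of its probe sets. Probe set 202729_s_at had RMA values of 8.0 and 6.95 and MAS5 intensities of 1057 and 476.3, which is 2.08-fold and 2.22-fold. Its RMA difference of 1.06 passed the 2-fold limit narrowly. Probe set 202728_s_at had RMA values of 7.43 and 6.82, a difference of 0.61, and MAS5 intensities of 358.2 and 191.2, a difference of 0.91. The gap of 0.44 between the RMA differences was larger than that of 84.5% of genes with 2 such probe sets. With the median of the 2 probe sets, 0.83, LTBP1 was not counted either. Both probe sets are of the _s_at kind, which can match more than 1 transcript.

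TGFBI encodes a secreted matrix protein that was named for its induction by TGF-beta and binds collagens and integrins. Its single probe set, 201506_at, had RMA values of 11.62 (CD133+) and 10.32 (CD133-), and MAS5 intensities of 13469 and 4625. The differences were 1.30 in RMA and 1.54 in MAS5, or 2.46-fold and 2.91-fold, and 98.5% of the genes above the floor had a lower RMA difference. With 1 probe set no second measurement of the gene was available on the array.

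**Figure D1:**
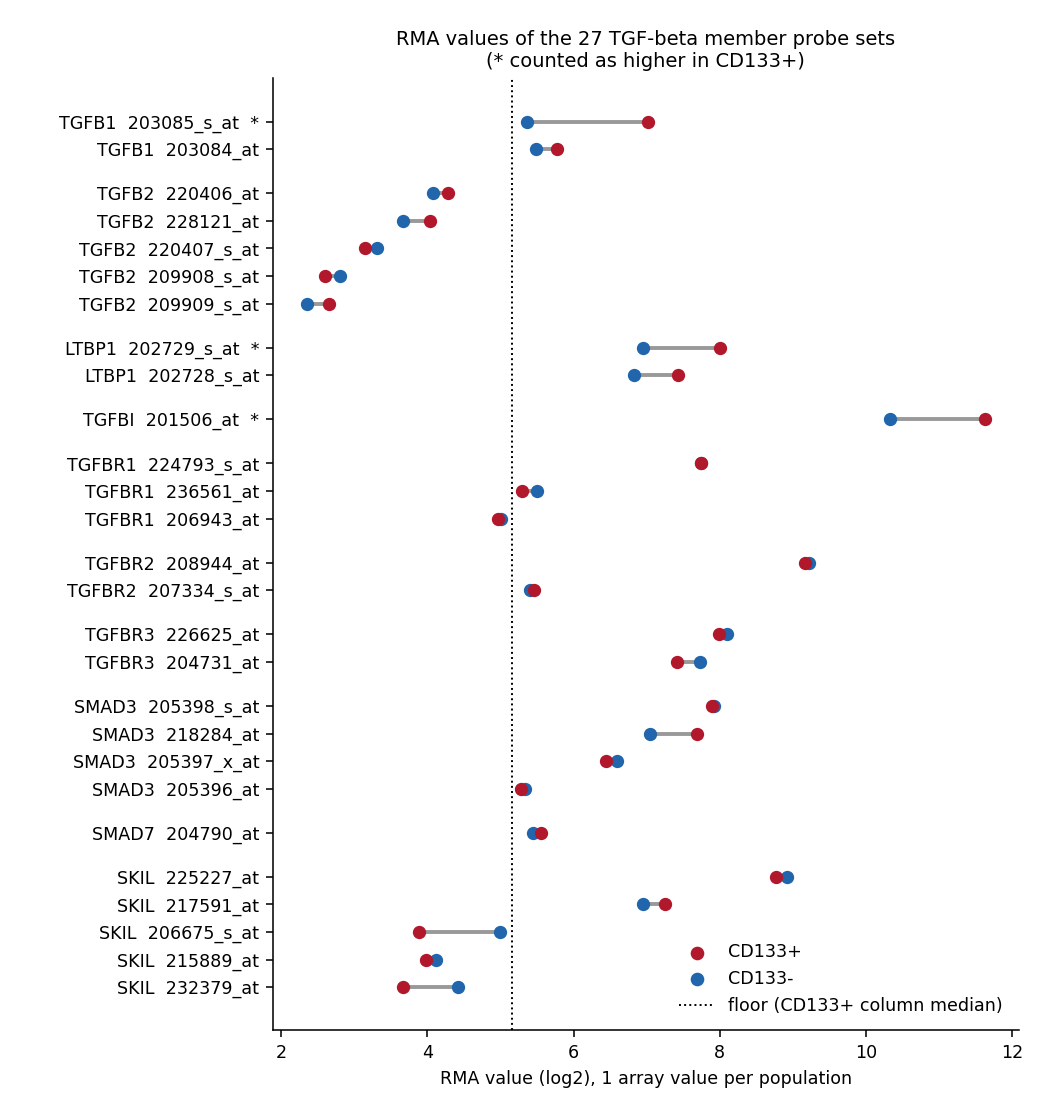
RMA values (log2, x axis) of the 27 member probe sets in CD133+ (red) and CD133- (blue), grouped by gene, with 1 array value per point and no error bars. The wide gaps above the dotted floor belong to TGFB1, LTBP1, TGFBI and 1 SMAD3 probe set, all 5 TGFB2 probe sets lie left of the floor, and the receptor points nearly coincide.

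The receptors differed little between the populations. TGFBR1 encodes the type I kinase that phosphorylates SMADs, TGFBR2 the type II kinase that binds ligand first, and TGFBR3 betaglycan. Over their 7 probe sets the RMA differences ran from -0.31 to 0.05 and the MAS5 differences from -0.44 to 0.09, and 6 of the 7 probe sets were above the floor. TGFBR1 had RMA values of 7.74 in both populations at probe set 224793_s_at, with MAS5 intensities of 1029 and 1240. Its other probe sets had RMA values of 5.29 (CD133+) and 5.50 (CD133-), and of 4.96 and 5.01. TGFBR2 had RMA values of 9.17 and 9.22 at probe set 208944_at, with MAS5 intensities of 2729 and 2832, and of 5.45 and 5.40 at probe set 207334_s_at. TGFBR3 had RMA values of 7.99 and 8.10 at probe set 226625_at and of 7.42 and 7.73 at probe set 204731_at. The MAS5 intensities of these 2 probe sets were 1296 against 1434 and 820.4 against 830.6. Each of these differences was within the probe set SD of 0.35 in RMA and 0.79 in MAS5, a technical spread that leaves out arrays and sorts, so a difference of this size between such populations would not be detectable here.

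SMAD3, the receptor-activated transcription factor, had 4 probe sets above the floor, of which 3 were close to 0 and 1 was not. Probe set 205398_s_at had RMA values of 7.89 (CD133+) and 7.92 (CD133-). Probe set 205397_x_at had 6.45 and 6.60, and probe set 205396_at 5.28 and 5.34. Probe set 218284_at had RMA values of 7.69 and 7.05 and MAS5 intensities of 746.1 and 579.7, a difference of 0.65 in RMA and 0.36 in MAS5. In RMA it was the highest difference among the 15 member probe sets above the floor that were not counted. Its distance from probe set 205398_s_at, 0.68 in RMA, was larger than the gap of 94.6% of genes. So SMAD3 was 1.57-fold higher in CD133+ by 1 probe set and slightly lower by the other 3 in RMA.

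SMAD7, the inhibitory SMAD that binds the type I receptor and recruits ubiquitin ligases to it, had RMA values of 5.55 (CD133+) and 5.44 (CD133-). Its MAS5 intensities were 126.1 and 128.5, so the processings gave opposite signs, 0.11 and -0.03, both near 0. SKIL encodes SnoN, which represses SMAD-driven transcription and is degraded on TGF-beta stimulation. Its brightest probe set, 225227_at, had RMA values of 8.77 and 8.92 and MAS5 intensities of 1206 and 1851, a difference of -0.15 in RMA and -0.62 in MAS5. Probe set 217591_at had RMA values of 7.24 and 6.95, a difference in the other direction of 0.30. The remaining 3 SKIL probe sets were below the floor in both populations, and all of them were lower in CD133+. The RMA values of 206675_s_at were 3.89 and 4.99, those of 232379_at 3.66 and 4.42, and those of 215889_at 3.98 and 4.12. The first of these differed by -1.10 in RMA and -1.20 in MAS5 and was the 1 member probe set past 2-fold downward in both processings. Because its higher value was under the floor, it was not counted and has no fold. Neither SMAD7 nor SKIL was counted in either direction, and any relation to TGFB1 or TGFBI was not tested.

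**Figure D2:**
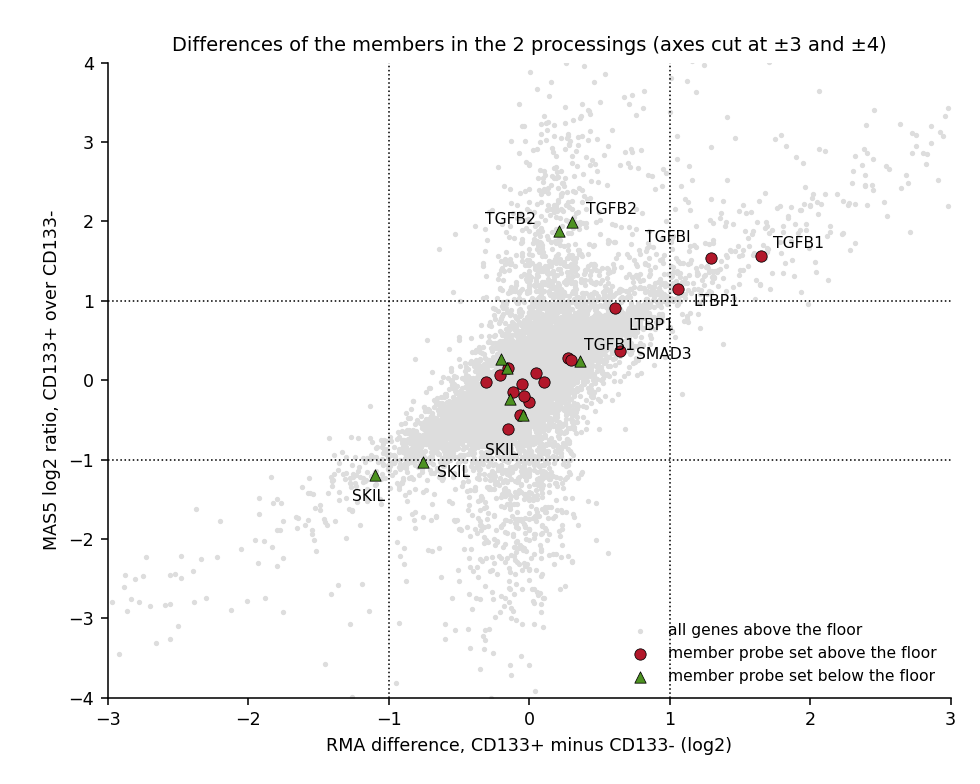
RMA difference (x axis) against MAS5 log2 ratio (y axis), CD133+ relative to CD133-, for member probe sets above the floor (red circles) and below it (green triangles), over all genes above the floor (grey). The 3 counted probe sets lie beyond both dotted 2-fold lines, and the pair of TGFB2 triangles near 2 on the MAS5 axis lie near 0 in RMA.

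Counted by probe set, 3 of the 18 member probe sets above the floor were higher and 0 were lower, where 1.74% of all 28435 probe sets above the floor were higher and 1.09% lower. RMA and MAS5 gave opposite signs in 5 of the 27 member probe sets. The 8 members with several probe sets had a median range of 0.50 between their lowest and highest RMA difference. The widest ranges were 1.40 for SKIL and 1.37 for TGFB1, and the narrowest was 0.10 for TGFBR2. For SKIL the range shrank to 0.45 over the 2 probe sets above the floor, whereas for TGFB1 both probe sets were above it.

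The wider pathway was described through 100 other genes in 8 lists, set by role. Of these, 93 had a probe set of their own and 75 were above the floor. INHBB and CDH1 were counted as higher, which is 2.67% and close to the 2.25% of all genes, and none was counted as lower. The median RMA difference of the 75 genes was -0.02.

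Genes of ligand supply and activation gave no count in either direction among 10 above the floor, with a median of 0.13. FURIN, the convertase that cleaves the TGF-beta propeptide, had RMA values of 8.20 (CD133+) and 8.89 (CD133-), a difference of -0.68, with MAS5 at -0.90. MMP14, a membrane protease that can release latent complexes, had RMA values of 7.47 and 6.97, a difference of 0.50, and a MAS5 difference of 2.02 from intensities of 143.1 and 35.3. TGM2, the crosslinking transglutaminase, differed by -0.45, but its other probe sets ranged from -1.82 to -0.09. TGFB3, the remaining ligand, which is named here outside the rule, had a value of 5.70 in both populations. Extracellular TGF-beta binding proteins also had 0 counted, of 3 above the floor, with RMA differences of -0.33 for BGN, -0.19 for FMOD and 0.09 for DCN. In MAS5 these were -0.83, 0.92 and 1.57, so FMOD changed sign between the processings.

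The related activin branch, which signals through the same SMAD2 and SMAD3, held 1 counted gene of 7 above the floor and had a median of 0.36. INHBB, which encodes the beta B subunit of activin and inhibin, had RMA values of 8.02 (CD133+) and 6.20 (CD133-), a 3.55-fold difference, and a MAS5 difference of 2.95. It has 1 probe set. FST, which encodes the activin-binding antagonist follistatin, lay the other way with RMA values of 10.06 and 10.85, a difference of -0.80, and its other probe sets ran from -0.75 to -0.41. GDF11, another ligand of this branch, differed by 0.42. The list of other receptors and coreceptors that act on SMAD2 and SMAD3 is not limited to activin. It had 0 of 7 counted and a median of 0.05, with RMA differences of 0.48 for NRP1, -0.31 for ACVR1B and 0.25 for CD109. The other CD109 probe sets, both above the floor, lay the other way, at -0.34 and -0.17.

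The other SMADs, SMAD anchors and receptor regulators had 0 of 14 counted, 10 of them below 0, and a median of -0.21. The ubiquitin ligase WWP1, which acts with SMAD7 on the type I receptor, had RMA values of 7.77 and 8.65, and the deubiquitinase USP4 had 6.67 and 7.54, RMA differences of -0.88 each. The MAS5 difference of USP4 was -0.41, and its other probe sets above the floor had RMA differences of -0.45 and -0.10. TRIM33, which ubiquitinates SMAD4, differed by -0.56. SMAD partners and corepressors had 0 of 10 counted and a median of -0.04, with RMA differences of 0.22 for EP300, 0.19 for E2F4 and -0.15 for CREBBP. The second probe set of EP300 above the floor was also at 0.22, while those of E2F4 and CREBBP had the opposite sign, at -0.05 and 0.34.

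Genes that TGF-beta induces in epithelial cells, other than TGFBI, were not shifted as a list. Of 19 above the floor 0 were counted, 9 were above 0 and 9 below, and the median was 0.00. ANGPTL4, a secreted lipase inhibitor, differed by 0.69 in RMA and 1.59 in MAS5. KLF10, an early response gene of TGF-beta, had RMA values of 7.23 (CD133+) and 7.94 (CD133-), a difference of -0.71. TIMP3, a matrix-bound protease inhibitor, had values of 7.18 and 8.03 at its brightest probe set, a difference of -0.86, while its other 3 probe sets, all above the floor, ran from -2.84 to -2.05. CCN2, a classical target, was at 10.54 and 10.43, and FN1, which encodes fibronectin, at 12.30 and 12.72; both were chosen after their values were seen. Among 6 genes that TGF-beta represses, 1 was counted as higher. This was CDH1, which encodes E-cadherin, at RMA values of 9.43 and 6.62, a 6.99-fold difference, with its other probe set at 1.28. ID3 differed by 0.74 and CDC25A by -0.17.

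**Figure D3:**
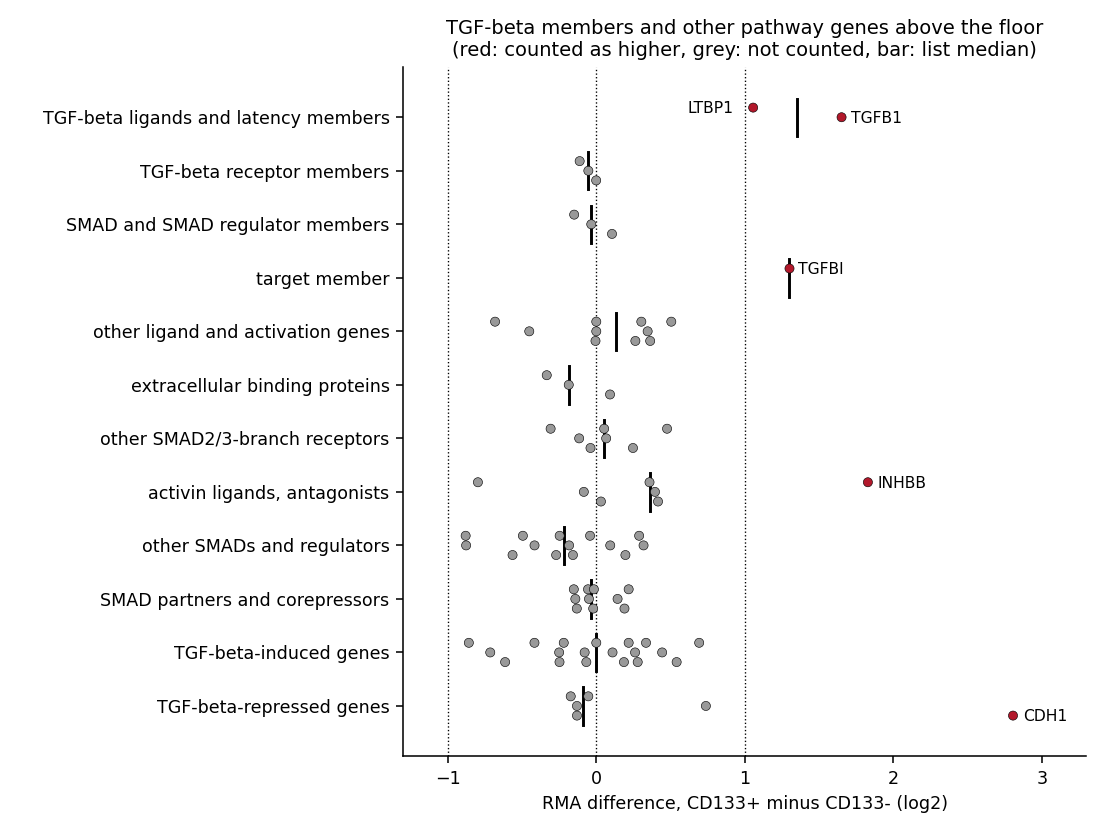
RMA difference, CD133+ minus CD133- (log2, x axis), of each gene above the floor in the member groups and the 8 other pathway lists, with 1 point per gene and a bar at each list's median. The counted genes (red) are TGFB1, LTBP1, TGFBI, INHBB and CDH1, and no gene lies left of the dotted 2-fold line at -1.

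The members lie on 8 chromosomes and the 3 counted ones on chromosomes 19, 2 and 5, so they share no locus. The nearest 5 genes above the floor on either side were taken from the RefSeq gene order. Around TGFB1 the 10 neighbours had a median RMA difference of -0.15, from -0.86 to 0.75, and 0 were counted. AXL and TMEM91 were its highest neighbours, at 0.72 and 0.75 in RMA and 0.83 and 1.52 in MAS5. Around LTBP1 the median was -0.11, the highest 0.21, and 0 were counted. Around TGFBI the median was 0.13, and 1 neighbour, TXNDC15, was counted as higher at 1.07, while PITX1 differed by 0.85 (RMA) and 1.88 (MAS5) and KLHL3 by 0.90 and 2.41. The closest neighbours of TGFBI, TIFAB and SMAD5, had differences of -0.13 and -0.18. The neighbours named here were chosen after their values were seen.

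**Figure D4:**
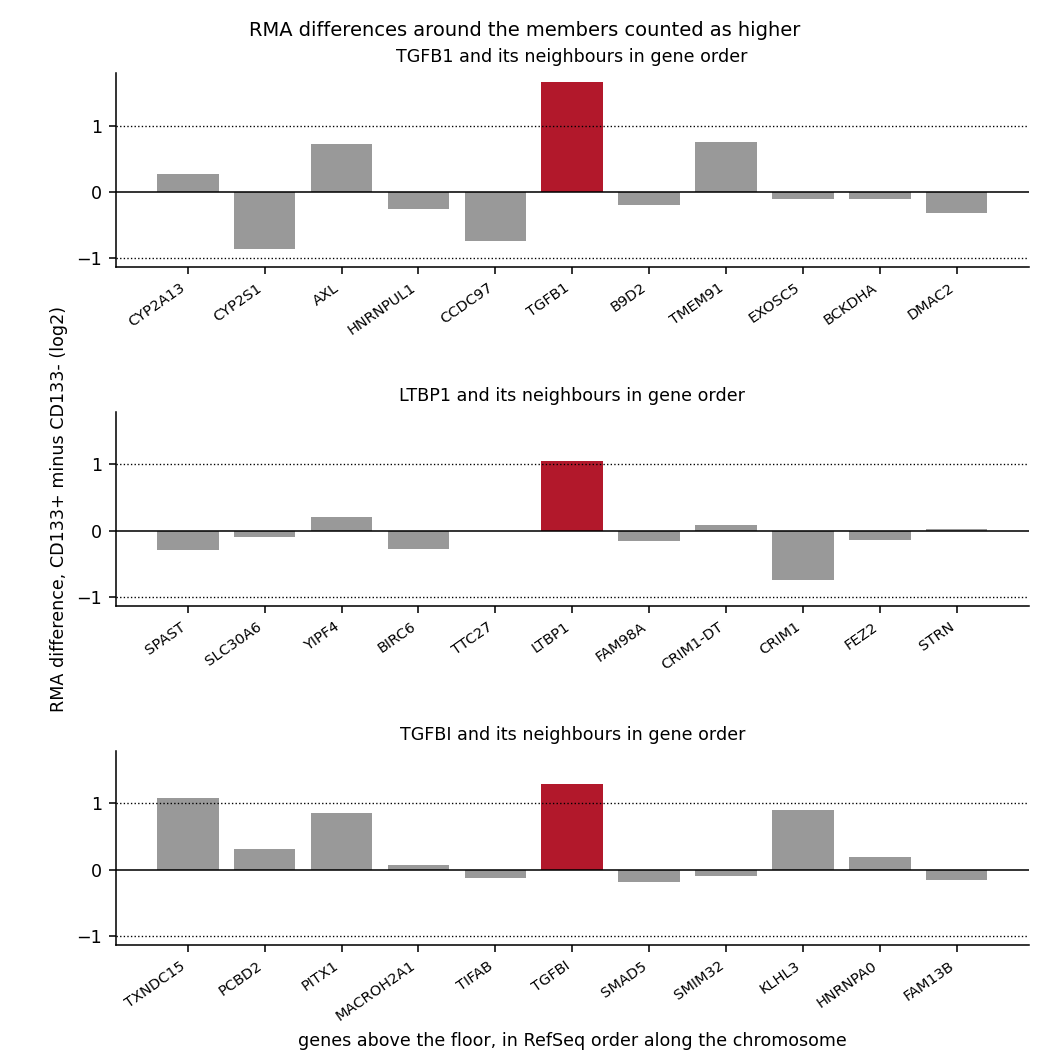
RMA difference, CD133+ minus CD133- (log2, y axis, dotted lines at 2-fold), of TGFB1, LTBP1 and TGFBI (red bars) and of the 5 nearest genes above the floor on either side (grey), in chromosomal order. TGFB1 and LTBP1 stand alone past the line, and near TGFBI only TXNDC15 also passes it.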

How the data were processed

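Transcripts of 1 CD133+ and 1 CD133- population were measured on oligonucleotide arrays. The authors deposited MAS5 output, which is a linear intensity per probe set, and RMA output, which is on the log2 scale. The submitters' processing notes name MAS5, RMA and GCOS; their versions were not given in the sources used here. The 2% trimmed means of both MAS5 columns were 500.1, so they had been scaled. Which arrays were normalized together, and whether both processings used the same arrays, is not stated. Values were used as deposited. Gene names came from the platform annotation of GEO, updated through gene ID with RefSeq of GRCh38.p14: 41097 had 1 gene, 1801 several and 11777 none, and 41043 matched RefSeq. No detection calls were used, so the RMA column median served as a floor. The number of arrays limits the precision.

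The genes named are the 10 members, PROM1, and in each other list every counted gene and up to 3 genes that cleared the floor, taken by size of RMA difference. TGFB3, CCN2, FN1, CD3E, the markers below the floor and the genes neighbouring members were named outside this rule, after their values were seen. The members and lists were chosen with earlier results of these data known. The code of the count rule was run on simulated data, which checks the code and says nothing about the counts given above. Promoter windows came from a RefSeq table that held all 10 members. Alternatives changed the processing, floor, pseudocount, fold limit, scaling and probe set choice. Python 3.11.15, pandas 2.3.3, numpy 2.4.6 and matplotlib 3.10.9 were used.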

Additional observations from a re-analysis of the deposited data

How the results depend on the processing

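TGFB1, LTBP1 and TGFBI were the member genes counted in RMA alone, in MAS5 alone, with the floor at the 75th percentile or removed, with a MAS5 pseudocount of 50, at 1.5-fold and after quantile normalization. Without _x_at and _s_at probe sets 1 member gene and 1 member probe set, both TGFBI, and 1 other pathway gene, INHBB, were counted, from fewer probe sets. LTBP1 and CDH1 then had no probe set left, and TGFB1 was left with a difference of 0.28. With the median over all probe sets 1 member gene was counted, again TGFBI, with TGFB1 at 0.97 and LTBP1 at 0.83. The count of other pathway genes was 9 in MAS5 alone (8 higher and 1 lower), 8 at 1.5-fold (4 and 4) and 4 with that median (2 and 2, TIMP3 and TGM2 being the lower ones); the cause was not tested. Of 63 single-gene values, 7 moved by more than the SD between 2 probe sets of a gene, and no counted gene changed sign. SMAD3 went from -0.03 to 0.65 without _x_at and _s_at probe sets, and to 0.03 after quantile normalization. SMAD7 went from 0.11 to -0.03 in MAS5 and to -0.02 with the pseudocount of 50, and TGFBR1 from -0.0007 to 0.06 after quantile normalization. Neither populations nor arrays were replicated, so no sample could be left out. No paired analysis was possible because each population had 1 value per processing.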

Other observations

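Around the members that were not counted, the 70 neighbouring genes, 10 per member, held 3 genes counted as higher and 3 as lower, where 2.25% and 1.09% of all genes above the floor were. These 6 were chosen for mention after their values were seen. GALNT12, which encodes an enzyme of mucin-type glycosylation and lies next to TGFBR1, had RMA values of 7.59 (CD133+) and 5.66 (CD133-). SLC2A2, which encodes the hepatocyte glucose transporter GLUT2 and lies 4 places from SKIL, had values of 8.02 and 9.42, a difference of -1.40. MYO5B, a myosin of apical vesicle traffic near SMAD7, had values of 4.75 and 6.70, and GPD1L near TGFBR2 had 7.99 and 9.27. SPATA17 and UBBP2, on the same side of TGFB2, had differences of 1.30 and 1.11, and UBBP2 is a pseudogene of the ubiquitin gene UBB, whose probe sets may share signal with its relatives.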
